A study of Mus musculus with 14 samples.

Results

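The genes described here encode the subunits of AMP-activated protein kinase (AMPK) and 2 kinases that switch it on, followed in mouse liver over 3 diets. They are Prkaa1 and Prkaa2 (catalytic α subunits), Prkab1 and Prkab2 (scaffolding β subunits), Prkag1 and Prkag2 (nucleotide-sensing γ subunits), Stk11 (the kinase LKB1) and Camkk2 (a calcium- and calmodulin-dependent kinase). They were taken by name, not by their values. Their probes were matched to current symbols through systematic names, accession lists, an older gene name or RIKEN clone names. The probes used for Prkaa1 and Prkab2 were matched by RIKEN clone name, and those for Camkk2 and Prkab1 by accession list. All 8 genes were found, on 11 of the 41174 distinct probes of the array, and all 8 were among the 30919 genes tested. Liver RNA came from male C57BL/6 mice aged 1 year. The resveratrol group (4 mice) ate high-calorie chow to which 0.04% resveratrol, a polyphenol of plants, had been added. The high-calorie group (5 mice) ate the same AIN-93G-based diet, with 60% of its calories from fat, without resveratrol. The standard-diet group (5 mice) ate unmodified AIN-93G.

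AMPK is a heterotrimer of 1 α, 1 β and 1 γ subunit that senses cellular energy. AMP and ADP bind the γ subunit, and the kinase becomes active when LKB1 or CaMKK2 phosphorylates the activation loop of the α subunit. In liver, active AMPK is known to restrain fatty acid and cholesterol synthesis and gluconeogenesis and to favour fat oxidation, and the study reported its activation by resveratrol. The arrays measured RNA, and neither the phosphorylation of AMPK nor its activity can be read from RNA levels.

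On each array the RNA of 1 animal carried the dye Cy3 and a pool of 5 standard-diet livers carried Cy5. The unit below is the log2 ratio of animal to pool, so a difference of 1 between diets is a doubling. Dyes were never swapped, so the distance of a gene's ratio from 0 includes that probe's dye effect and only differences between diets are compared. Each array is a separate animal per the labels, so the spread given holds both differences between mice and measurement error. Of all probes, 81.9 to 92.4% were well above background in Cy3 on the resveratrol arrays, 83.5 to 91.8% on the high-calorie arrays and 77.8 to 88.2% on the standard-diet arrays. Hepatocyte marker genes were well above background on every array (7 of 7 markers). No array stood as a copy of another (highest correlation between arrays 0.889). All 4 resveratrol arrays were image-extracted on day 1, against 2 high-calorie and 3 standard-diet arrays, so that no resveratrol value exists for day 2. By slide number the arrays fell into 2 series. Series 1 held 3 resveratrol, 2 high-calorie and 0 standard-diet arrays, and series 2 held 1, 3 and 5. Diet and slide series therefore cannot be fully told apart, least of all for resveratrol against the standard diet.

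No AMPK subunit passed the test in any comparison. Camkk2 RNA was higher in high-calorie than in standard-diet livers and was the only one of the 8 genes to pass, at an adjusted p under 0.05 over all genes. With resveratrol none of the 8 genes passed against either diet. Outside the 8 genes, the LKB1 partner gene Stradb was higher on the high-calorie diet than on the standard diet, and lower with resveratrol than without it, a call that held in 10 of 26 alternatives.

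Promoters are shown because their genes, Camkk2 and the LKB1 partners Stradb and Strada, passed in the same direction in high-calorie against standard-diet livers. Each is the 250 bases before the transcript start that the RefSeq promoter table uses (assembly GRCm38.p6), read 5′ to 3′ on the gene's strand. For Stradb that start is the outer end of the RefSeq gene, while for Camkk2 it lies 112 bases and for Strada 31 bases inside it, so part of those windows is within the gene as annotated. They lie at chr5:122779411-122779660 (minus strand), chr1:58973272-58973521 (plus strand) and chr11:106193604-106193853 (minus strand). Capitals mark GC boxes (GGGCGG on either strand).
Camkk2: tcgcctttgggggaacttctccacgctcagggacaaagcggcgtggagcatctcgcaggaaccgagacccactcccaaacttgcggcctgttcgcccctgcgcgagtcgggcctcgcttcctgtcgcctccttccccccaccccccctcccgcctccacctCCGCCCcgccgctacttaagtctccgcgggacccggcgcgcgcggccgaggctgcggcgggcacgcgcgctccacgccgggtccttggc
Stradb: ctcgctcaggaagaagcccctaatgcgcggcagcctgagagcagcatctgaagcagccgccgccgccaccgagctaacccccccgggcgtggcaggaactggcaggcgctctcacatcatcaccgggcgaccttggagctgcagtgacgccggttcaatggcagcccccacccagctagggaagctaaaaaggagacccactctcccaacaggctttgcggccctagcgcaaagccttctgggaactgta
Strada: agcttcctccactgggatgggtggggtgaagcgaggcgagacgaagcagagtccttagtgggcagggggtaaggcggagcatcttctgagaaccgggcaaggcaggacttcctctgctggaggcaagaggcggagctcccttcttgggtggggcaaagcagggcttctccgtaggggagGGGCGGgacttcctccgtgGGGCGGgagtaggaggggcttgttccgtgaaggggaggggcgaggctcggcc

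The 3 promoters had 72.4% (Camkk2), 63.6% (Stradb) and 65.6% (Strada) G and C. The Camkk2 promoter held 1 GC box, 89 bases before that transcript start, the Strada promoter held 2, at 71 and 52 bases before it, and the Stradb promoter held none. Of 32851 promoter windows of the same length, 32.74% held a GC box. Neither a CCAAT box (CCAAT, in 33.85% of windows), an E-box (CACGTG, 6.021%), a cAMP response element (TGACGTCA, 1.546%) nor a direct repeat of the PPAR type (AGGTCA, any 1 base and AGGTCA again, 0.03348%) occurred on either strand of the 3 windows. The motifs searched share no overlapping letters in these windows, and a match is a description of the letters only.

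The first comparison asked what resveratrol changed on the high-calorie diet. None of the 8 genes passed, where 5.66% of all genes tested did (3.35% as higher and 2.31% as lower). None had an unadjusted p under 0.05 either, where 22.6% of all genes did, and in none did the 4 resveratrol arrays lie apart from the 5 high-calorie arrays, where 13.3% of all genes had groups that did not overlap (7.04% with resveratrol above and 6.21% with it below). The log2 differences, resveratrol minus high-calorie, ran from -0.17 for Prkaa2 to 0.08 for Prkag2, with a median of -0.07, beside a median of -0.01 over all genes tested. They were below 0 for 7 of the 8 genes, but for 4 of 8 when arrays were centred on their medians in place of loess. On simulated data with independent noise, this comparison recovered 34% of genes changed by 0.25 on the log2 scale and 88% of those changed by 0.5. These shares are over randomly chosen genes and do not give the power for the 8 genes. Their SE ran from 0.05 (Prkab2) to 0.13 (Prkaa1), beside a median of 0.06 over all genes tested.

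**Figure D1:**
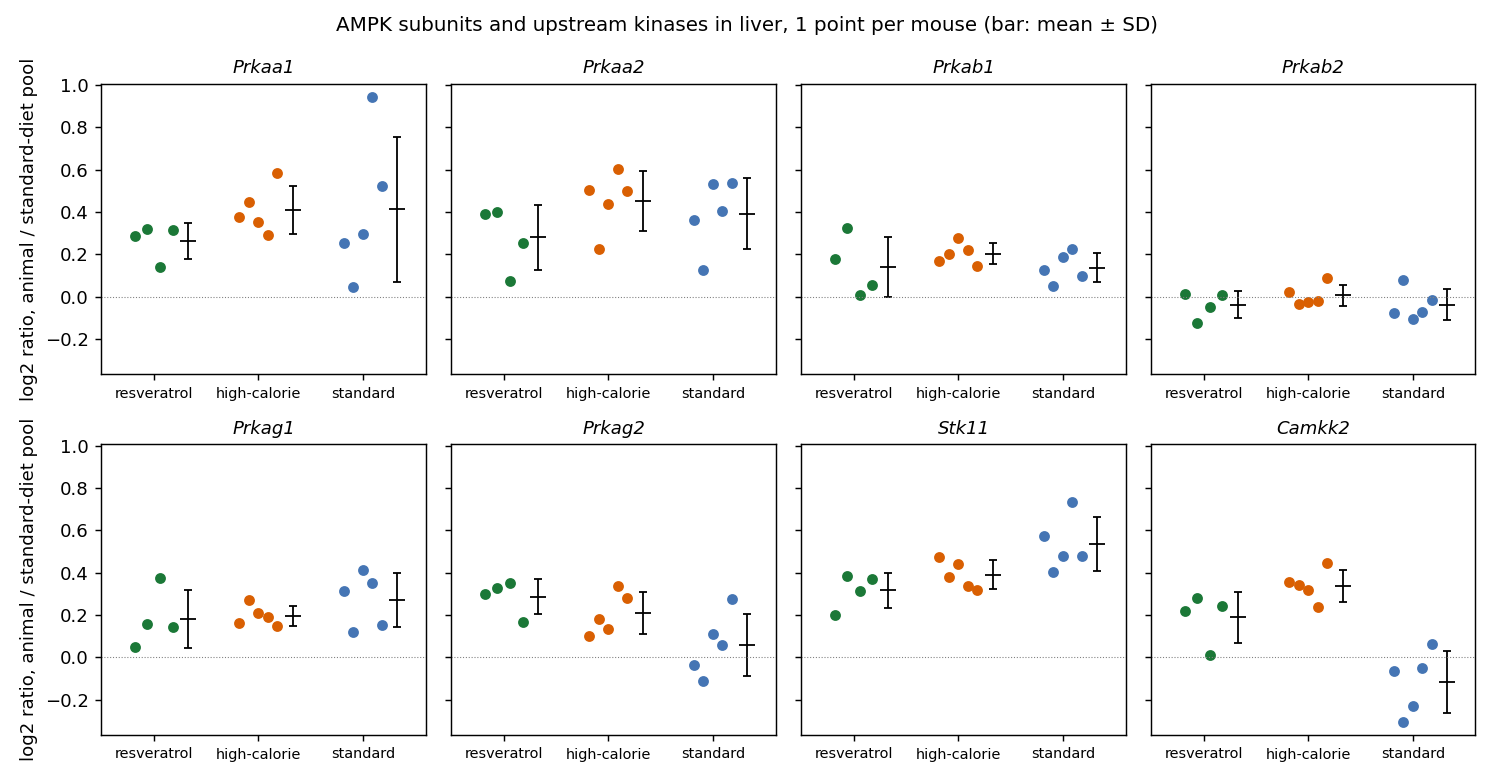
Log2 ratio of animal to standard-diet pool (y axis) for each of the 8 genes, with 1 point per mouse and the mean ± SD beside each group of 4 resveratrol, 5 high-calorie or 5 standard-diet mice. The groups overlap in most panels; all high-calorie points of Camkk2 lie above all its standard-diet points, and all resveratrol points of Stk11 lie below its standard-diet points.

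The α subunits carry the kinase domain, and α2 is encoded by Prkaa2. Prkaa2 ratios were 0.39, 0.40, 0.07 and 0.26 in resveratrol livers, 0.50, 0.23, 0.44, 0.60 and 0.50 in high-calorie livers and 0.36, 0.12, 0.53, 0.41 and 0.53 in standard-diet livers. The groups overlapped throughout, and resveratrol replicate 3 was the lowest of all. The difference was -0.17 ± 0.10 (SE) between resveratrol and high-calorie livers, with a 95% interval of -0.38 to 0.03 (adjusted p = 0.308). Between high-calorie and standard-diet livers it was 0.06 ± 0.09 (adjusted p = 0.699).

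Prkaa1, the gene of α1, averaged 0.26 ± 0.08 (SD, n = 4) in resveratrol livers, 0.41 ± 0.11 (SD, n = 5) in high-calorie livers and 0.41 ± 0.34 (SD, n = 5) in standard-diet livers. The wide standard-diet spread came with 1 animal: replicate 4 stood at 0.94, while the others stood at 0.25, 0.05, 0.29 and 0.52. The difference between high-calorie and standard-diet livers was -0.0014, and 0.13 without standard-diet replicate 4 (adjusted p = 0.357). The difference between resveratrol and high-calorie livers was -0.15 ± 0.13 (SE; adjusted p = 0.559). The 95% interval, -0.43 to 0.14, was the widest of the 8 genes.

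The β subunits hold the complex together and bind glycogen. Prkab1 averaged 0.14 ± 0.14 in resveratrol livers, 0.20 ± 0.05 in high-calorie livers and 0.14 ± 0.07 in standard-diet livers. Prkab2 averaged -0.04 ± 0.06 in resveratrol livers, 0.01 ± 0.05 in high-calorie livers and -0.04 ± 0.07 in standard-diet livers (SD, n = 4, 5 and 5 for both genes). The 95% interval of Prkab2, resveratrol minus high-calorie, was -0.14 to 0.06, the narrowest of the 8 genes, and that of Prkab1 was -0.19 to 0.07. Between high-calorie and standard-diet livers Prkab1 differed by 0.07 (adjusted p = 0.474). Prkab2 has a second probe, A_52_P126266, which gave 0.17 ± 0.06 (SE) for high-calorie minus standard diet in the fit over 37138 probes (adjusted p = 0.0686). The probe that represents Prkab2, A_51_P264781, gave 0.04 ± 0.04 for the same comparison (adjusted p = 0.548 in that fit), so the probes differed in size, and neither passed. The representing probe was matched by RIKEN clone name and the second by systematic name. Their mean net Cy3 signals were nearly equal, at 51.9 and 51.8 units.

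The γ subunits bind AMP, ADP and ATP. Prkag2 ratios were 0.30, 0.33, 0.35 and 0.17 in resveratrol livers, 0.10, 0.18, 0.14, 0.34 and 0.28 in high-calorie livers and -0.03, -0.11, 0.11, 0.06 and 0.28 in standard-diet livers. Standard-diet replicate 5 overlapped both other groups, and the remaining 4 standard-diet animals lay below every resveratrol animal. Prkag2 was 0.23 ± 0.07 (SE) higher in resveratrol than in standard-diet livers on the log2 scale, which did not pass over all genes (adjusted p = 0.279, unadjusted p = 0.00773). In that comparison 3 of the 8 genes (Prkag2, Stk11 and Camkk2) had an unadjusted p under 0.05, where 10.6% of all genes did. The Prkag2 probe was the dimmest of the 8, with net Cy3 signals of 20.6 to 51.4 units. It was well above background on 12 of 14 arrays, in 4 of 4 resveratrol, 5 of 5 high-calorie and 3 of 5 standard-diet arrays. A second Prkag2 probe was not well above background on any array and was not tested.

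Prkag1 averaged 0.18 ± 0.14 (SD, n = 4) in resveratrol livers, 0.20 ± 0.05 (SD, n = 5) in high-calorie livers and 0.27 ± 0.13 (SD, n = 5) in standard-diet livers. The difference was -0.01 ± 0.07 (SE) between resveratrol and high-calorie livers, with an interval of -0.16 to 0.14. Its second probe, A_52_P273546, gave 0.06 for that comparison and -0.15 for high-calorie minus standard diet (adjusted p = 0.15), where the main probe gave -0.07. Neither Prkag1 probe passed in any comparison.

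The balance of paired isoforms was taken within each array, where effects common to the whole array cancel. It was the log2 ratio of one gene minus that of the other, described here with no test. For γ it was 0.10 ± 0.13 in resveratrol livers, 0.01 ± 0.12 in high-calorie livers and -0.21 ± 0.19 in standard-diet livers for Prkag2 minus Prkag1, and all 3 groups overlapped. The γ difference between high-calorie and standard-diet livers, 0.22, turned to -0.05 with median centring. For α (Prkaa2 minus Prkaa1) the mean was 0.02 in resveratrol livers, 0.04 in high-calorie livers and -0.02 in standard-diet livers. For β (Prkab2 minus Prkab1) it was -0.18 in resveratrol livers, -0.20 in high-calorie livers and -0.17 in standard-diet livers, so both balances differed between diets by less than their spread.

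**Figure D2:**
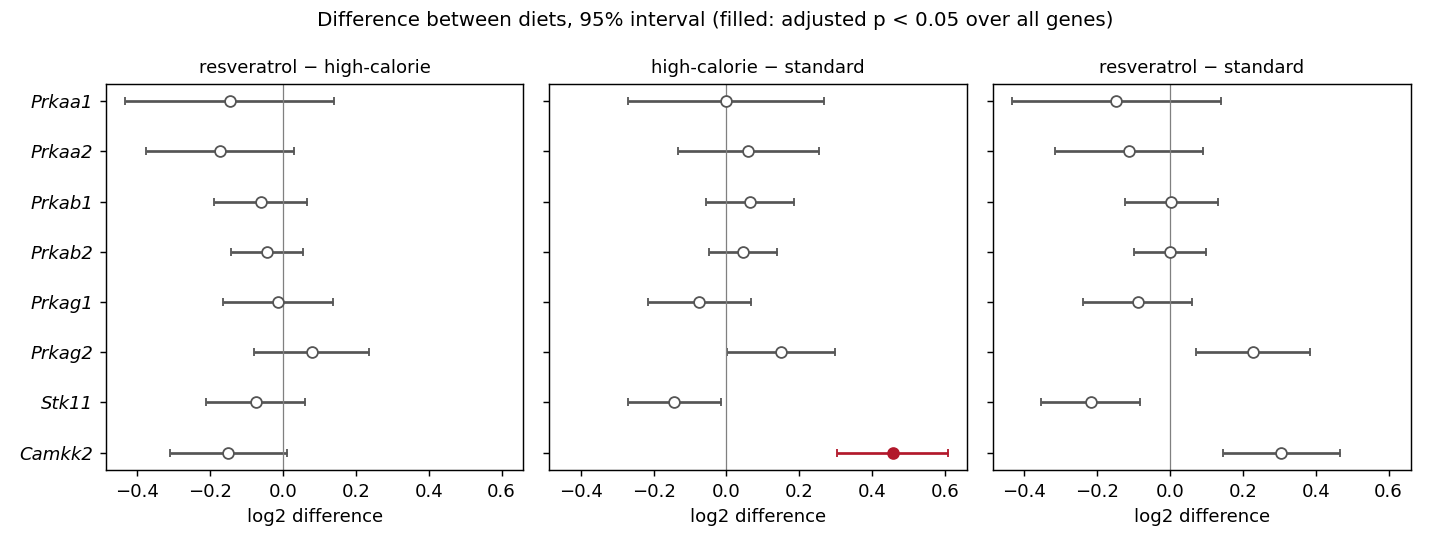
Log2 difference (x axis) of each gene in 3 comparisons, resveratrol minus high-calorie, high-calorie minus standard diet and resveratrol minus standard diet, with 95% intervals. Filled points passed at an adjusted p under 0.05 over all 30919 genes: only Camkk2 in the middle panel, at 0.46.

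Camkk2, the kinase that links calcium signals to AMPK, was the gene that differed between diets without resveratrol. Its ratios were 0.36, 0.34, 0.32, 0.24 and 0.45 in high-calorie livers, against -0.06, -0.30, -0.23, -0.05 and 0.06 in standard-diet livers. The lowest high-calorie animal thus lay above the highest standard-diet animal. Camkk2 was higher by 0.46 ± 0.07 (SE), or 1.37-fold, with a 95% interval of 0.30 to 0.61 and an adjusted p of 0.00163. It was 1 of 8 genes called in high-calorie against standard-diet livers, where 9.71% of all genes tested were called (5.44% as higher and 4.27% as lower). Groups that did not overlap occurred in 10.5% of all genes tested, in 5.23% with the high-calorie animals above and in 5.32% with them below. Unadjusted p-values under 0.05, found for 3 of the 8 genes, occurred in 27.9% of all genes.

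The size of the Camkk2 difference depended on how the weak signal was treated. Its net Cy3 signal was 73.5 to 182.2 units in high-calorie livers and 42.4 to 92.4 units in standard-diet livers, and the offset of 50 added to each signal compresses the ratio of such weak spots. With an offset of 10 the log2 difference was 0.64, with the scanner's own processed signals 0.83 (1.78-fold), and without background correction 0.14. Of the alternatives run, 27 could move the Camkk2 call, leaving out quantile normalisation of the average intensities, which changes no ratio, and the averaging of probes, since it has 1 probe. All 27 gave a positive difference and 24 passed, though 4 of the 27 left the difference itself as it was and altered only the spread or the adjustment. Tallies of alternatives below are counted in the same way. Those that did not pass were the Cy3 channel alone (0.66, adjusted p = 0.0653), the deposited scores (0.31 score units, adjusted p = 0.0699) and the arrays extracted on day 2 alone (0.49, adjusted p = 0.253, 3 against 2 arrays).

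**Figure D3:**
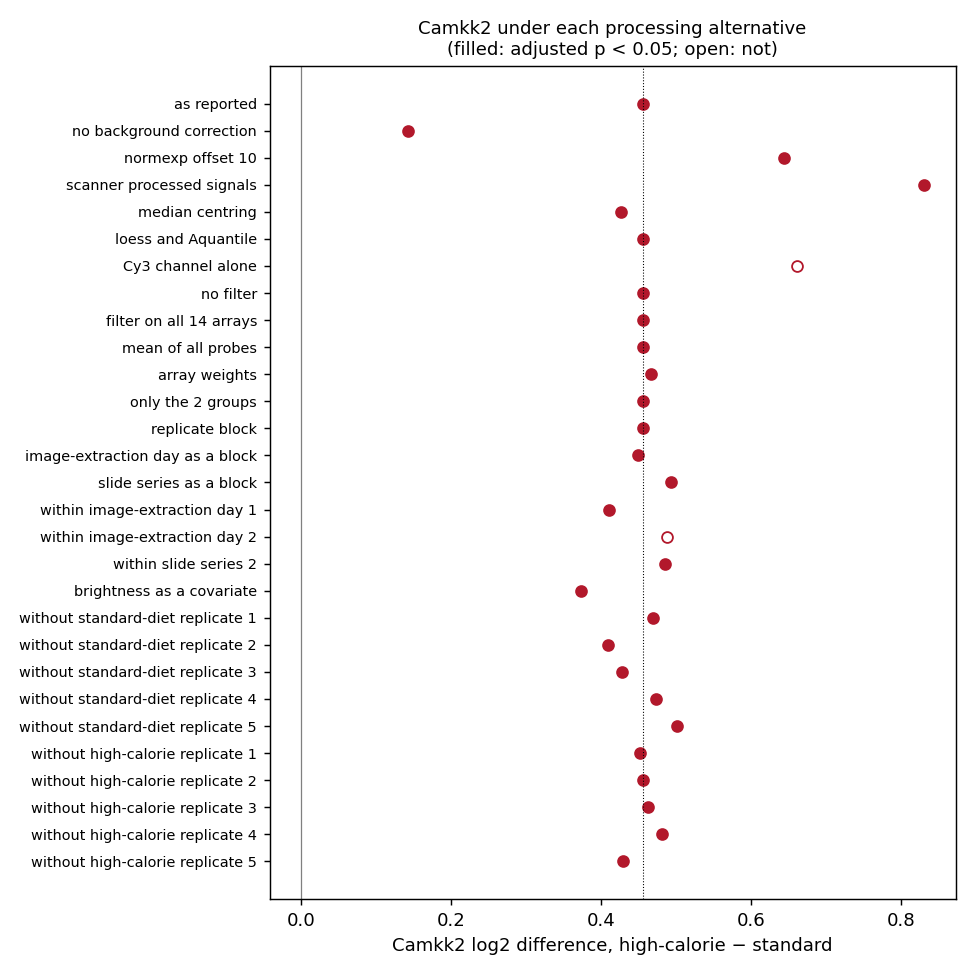
Camkk2 log2 difference, high-calorie minus standard diet (x axis), as reported (dotted line, 0.46) and under each alternative on the log2 scale (rows); filled points passed at an adjusted p under 0.05. All points lie above 0, from 0.14 to 0.83, and those for the Cy3 channel alone and for image-extraction day 2 are open.

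Array brightness and marker lists of cell types were set beside Camkk2, and only the stellate list rose in all its tested genes. The median net Cy3 signal of an array was 57.3 to 113.6 units in high-calorie livers and 48.4 to 85.2 units in standard-diet livers, and with brightness as a covariate Camkk2 differed by 0.37 (adjusted p = 0.00873). Within day 1 the difference was 0.41 (adjusted p = 0.0359), and within slide series 2, the only series with standard-diet arrays, 0.48 (adjusted p = 0.0211). The 5 tested stellate cell markers averaged 0.29 to 0.40 on the high-calorie arrays and -0.15 to -0.03 on the standard-diet arrays. All 5 rose (Col3a1, Col1a2, Lrat, Rgs5 and Col1a1), at 0.24 to 0.75. On the resveratrol arrays the same markers averaged -0.09 to 0.06. The 5 endothelial markers averaged 0.27 to 0.39 on the high-calorie arrays and 0.09 to 0.27 on the standard-diet arrays, and 2 of 5 rose (Pecam1 and Cdh5). The 6 adipocyte markers averaged -0.10 to 0.22 on the high-calorie arrays and -0.38 to -0.21 on the standard-diet arrays, with 1 that rose (Cfd) and 1 that fell (Retn). The median difference was 0.06 in the endothelial list and -0.09 in the adipocyte list. Of 7 Kupffer cell and macrophage markers none passed (median 0.11), and of 7 hepatocyte markers 1 fell (median -0.24). In whole liver, more cells of a type and more RNA per cell cannot be told apart, and the part of these cells in the Camkk2 result was not tested.

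With resveratrol, Camkk2 ratios were 0.22, 0.28, 0.01 and 0.24. Replicates 2 and 4 lay within the high-calorie range, replicate 1 just below it and replicate 3 within the standard-diet range. Camkk2 differed by -0.15 ± 0.08 (SE) between resveratrol and high-calorie livers, with an interval of -0.31 to 0.01 (adjusted p = 0.256). Between resveratrol and standard-diet livers it differed by 0.31 ± 0.08 (adjusted p = 0.129, unadjusted p = 0.00112), where 0.233% of all genes were called (0.139% as higher and 0.0938% as lower). Without resveratrol replicate 3 that difference was 0.37 and passed (adjusted p = 0.044). The comparisons share arrays, so these values are not independent of each other.

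Stk11 encodes LKB1, the main upstream kinase of AMPK in liver. Its ratios were 0.20, 0.38, 0.31 and 0.37 in resveratrol livers, 0.48, 0.38, 0.44, 0.34 and 0.32 in high-calorie livers and 0.58, 0.40, 0.48, 0.73 and 0.48 in standard-diet livers. Every resveratrol animal lay below every standard-diet animal, which 1.86% of all genes tested showed in that direction (2.94% in either), and the high-calorie animals overlapped both. The difference did not pass, at -0.22 ± 0.06 (SE) for resveratrol minus standard diet (interval -0.35 to -0.08, adjusted p = 0.207, unadjusted p = 0.00388). For high-calorie minus standard diet it was -0.14 ± 0.06 (adjusted p = 0.135), and for resveratrol minus high-calorie -0.07 ± 0.06 (adjusted p = 0.523). With array weights, Stk11 passed as lower in high-calorie than in standard-diet livers (-0.17, adjusted p = 0.0456).

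Some animals were low in several genes at once. Standard-diet replicate 2 was the lowest of its group in 7 of the 8 genes, and resveratrol replicate 3 was the lowest of its group in 4 of 8. Standard-diet replicate 2 was also the dimmest array of all 14, with a median net Cy3 signal of 48.4 units and 77.8% of probes well above background. Resveratrol replicate 3, at 67.7 units and 84.3% of probes, was not the dimmest of its group. The part of brightness in these low values was not tested.

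LKB1 works in a complex with a STRAD pseudokinase and a MO25 scaffold, and other kinases and calmodulin act upstream of AMPK as well. Of 8 such genes tested, 2 were higher in high-calorie than in standard-diet livers, where 5.44% of all genes were, none was lower and 6 did not pass, with a median of 0.20 beside -0.00291 over all genes. Stradb, the STRADβ gene, stood at 0.61, 0.55, 0.52, 0.62 and 0.56 in high-calorie livers, against -0.12, -0.15, 0.02, 0.31 and 0.14 in standard-diet livers. Its high-calorie values lay within a narrow band above all others. All high-calorie animals lay above all standard-diet animals in 5.23% of all genes tested. Stradb was higher by 0.54 ± 0.08 (SE), or 1.45-fold (adjusted p = 0.00116), and passed in 25 of 27 alternatives.

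Strada, the STRADα gene, was higher in high-calorie livers by 0.18 ± 0.03 (SE; adjusted p = 0.0074) and passed in 22 of 28 alternatives. It averaged 0.04 in high-calorie livers and -0.14 in standard-diet livers, where all 5 animals lay between -0.17 and -0.11. With resveratrol it averaged -0.01, and all 4 animals lay above all standard-diet animals, but the difference of 0.13 did not pass (adjusted p = 0.183). Groups that did not overlap, resveratrol above, occurred in 1.08% of all genes.

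Stradb was also the gene of this list that differed with resveratrol, as 1 of 8 tested, where 5.66% of all genes were called. It stood at 0.23, 0.29, 0.02 and 0.27 in resveratrol livers, below all 5 high-calorie animals (as in 6.21% of all genes tested) and within the standard-diet range. It was lower than on the high-calorie diet alone by 0.37 on the log2 scale (-0.37 ± 0.08, SE; adjusted p = 0.0231), but passed in only 10 of 26 alternatives. Within the list the median was -0.09. The stellate marker list moved with Stradb too: 3 of its 5 tested genes fell with resveratrol against the high-calorie diet (Col1a2, Lrat and Col3a1, with differences of -0.34 to -0.61), and its part in the Stradb result was not tested.

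**Figure D4:**
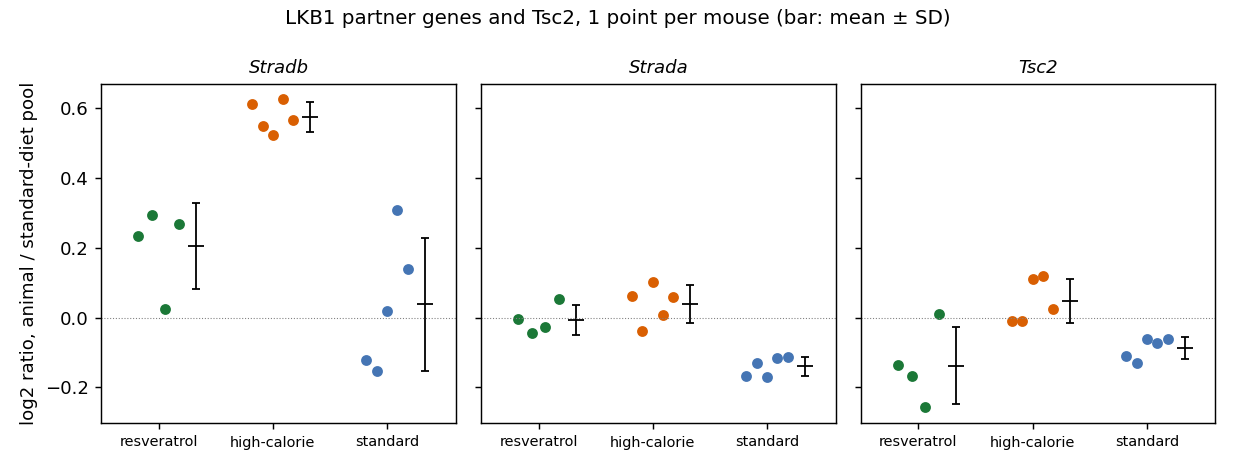
Log2 ratio of animal to pool (y axis) for Stradb, Strada and Tsc2, with 1 point per mouse and the mean ± SD beside each group of 4 resveratrol, 5 high-calorie or 5 standard-diet mice. The 5 high-calorie points of Stradb lie between 0.52 and 0.62, above all others, and the 5 standard-diet points of Strada lie below all others.

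Other regulators of AMPK include phosphatases, adenylate kinases, sestrins, adiponectin receptors and the folliculin complex. Of 14 tested, 4 rose in high-calorie against standard-diet livers, where 5.44% of all genes rose. The other 10 did not pass, and the list's median difference was 0.18. Those that rose were Fnip1, a folliculin-interacting partner (0.43 ± 0.10, SE; adjusted p = 0.0182), Sesn1 (0.31 ± 0.08, adjusted p = 0.0311) and Sesn3 (0.38 ± 0.11, adjusted p = 0.0417), both stress-induced sestrins that act on AMPK and mTORC1, and Ppm1a, a phosphatase that removes the activating phosphate of AMPK (0.19 ± 0.05, adjusted p = 0.038). Sesn3 is named beyond the rule of 3 genes so that all that passed are given. Fnip1 stood at 0.58 to 1.00 in high-calorie livers, against 0.06 to 0.61 in standard-diet livers. Fnip1 passed in 19 of 27 alternatives, Sesn1 in 14 of 27 and Ppm1a in 9 of 27.

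With resveratrol none of the 14 regulators passed against the high-calorie diet, with a median of -0.17. Ppm1a was the nearest, at 0.15 in resveratrol livers and 0.32 in high-calorie livers on average, without overlap (-0.17 ± 0.05, SE; adjusted p = 0.0853). Ak3, a mitochondrial adenylate kinase, did not overlap either (-0.20, adjusted p = 0.111). Groups that did not overlap, resveratrol below, occurred in 6.21% of all genes tested. Both genes were named for having the smallest p in the list. None of the 14 passed against the standard diet, where Sesn1 differed by 0.30 (adjusted p = 0.217).

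LKB1 also activates kinases related to AMPK. Of 11 tested, 2 rose in high-calorie against standard-diet livers, where 5.44% of all genes rose, and 9 did not pass, with a median of 0.03. Sik3, a salt-inducible kinase that holds back gluconeogenic transcription, rose by 0.56 ± 0.15 (SE; adjusted p = 0.0303) and Nuak1 by 0.19 ± 0.05 (adjusted p = 0.0321). Sik3 passed in 15 of 28 alternatives and Nuak1 in 12 of 27. None passed with resveratrol against either diet. Against the high-calorie diet, Mark3, a kinase of microtubule-associated proteins, averaged -0.35 in resveratrol livers and -0.12 in high-calorie livers. Its groups did not overlap, as in 6.21% of all genes tested with resveratrol below. Mark3 missed the threshold (-0.23, adjusted p = 0.0531), while Brsk2 differed by 0.13 (adjusted p = 0.159).

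**Figure D5:**
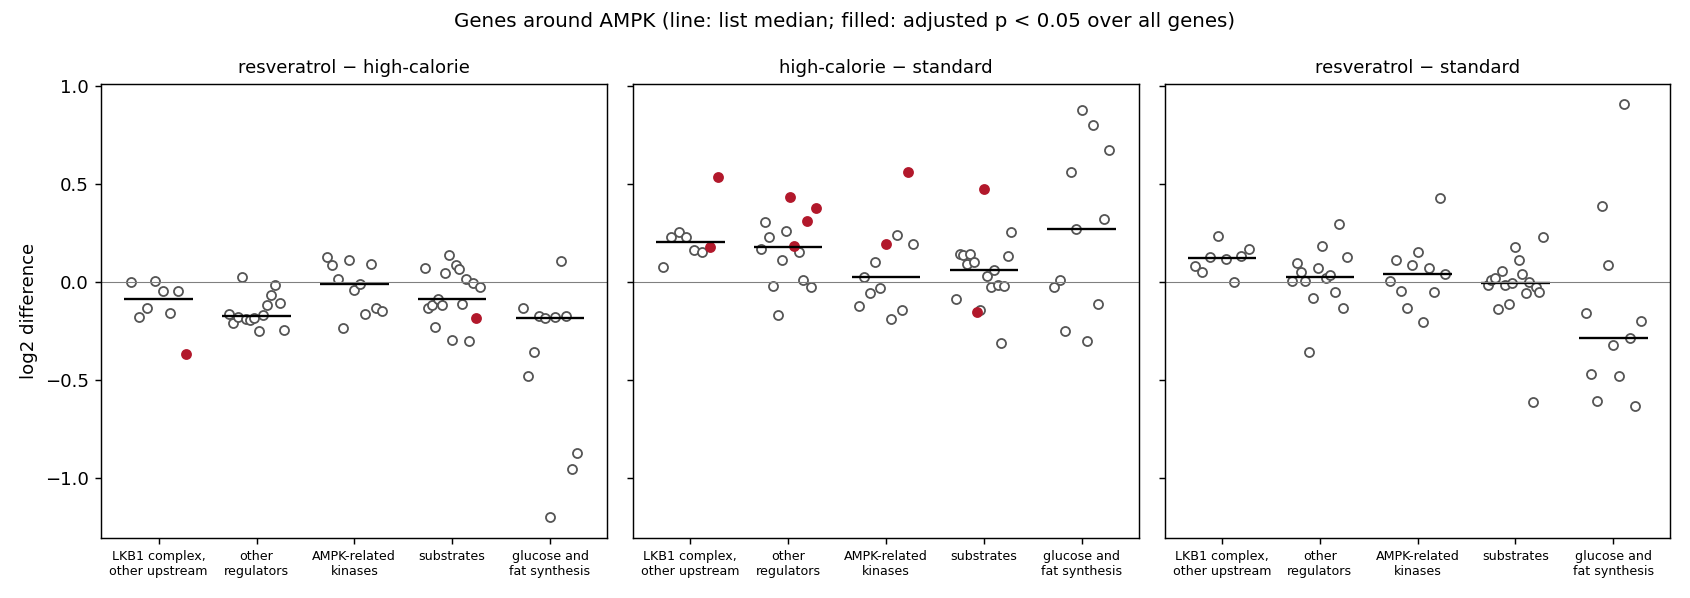
Log2 difference (y axis) of each tested gene in 5 lists around AMPK (x axis), for resveratrol minus high-calorie, high-calorie minus standard diet and resveratrol minus standard diet. Lines are list medians and filled points passed at an adjusted p under 0.05 over all genes; filled points are most frequent in the middle panel and absent from the right one.

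Of 17 AMPK substrates tested, 1 rose and 1 fell in high-calorie against standard-diet livers and 15 did not pass, a share near the 9.71% of all genes called. Mff, a mitochondrial fission factor, rose by 0.47 ± 0.13 (SE; adjusted p = 0.0335) and passed in 14 of 28 alternatives. Hnf4a, a hepatocyte transcription factor, fell by 0.15 on the log2 scale (-0.15 ± 0.04, SE; adjusted p = 0.0403), but passed in 9 of 28 alternatives and its sign turned under 3 of them: 0.00 with median centring, 0.12 in the Cy3 channel alone and 0.05 score units in the deposited scores. With resveratrol 1 substrate of 17 passed against the high-calorie diet, a share near the 5.66% of all genes called. It was Tsc2, a brake on mTORC1. It stood at -0.14, -0.17, -0.26 and 0.01 in resveratrol livers, against -0.01, -0.01, 0.11, 0.12 and 0.03 in high-calorie livers. Only resveratrol replicate 4 overlapped the high-calorie animals, and the difference of -0.19 ± 0.05 (SE; adjusted p = 0.0464) passed in just 4 of 26 alternatives. None of the 17 passed against the standard diet, where Srebf1, a regulator of lipid synthesis, differed by -0.61 (adjusted p = 0.284).

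The acetyl-CoA carboxylases, the best-known AMPK substrates, were read through 2 probes that the files describe by that name, since no probe was matched to their current symbols. Neither passed in any comparison. The probe described as acetyl-CoA carboxylase beta differed by -0.33 ± 0.26 (SE) between resveratrol and high-calorie livers (adjusted p = 0.492) and that described as acetyl-CoA carboxylase by -0.10 ± 0.08 (adjusted p = 0.51).

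Liver genes of glucose and fat synthesis that active AMPK is known to lower formed the last list, of 11 genes tested. None passed in any comparison, with medians of -0.18 for resveratrol minus high-calorie, 0.27 for high-calorie minus standard diet and -0.28 for resveratrol minus standard diet. With median centring, 2 of the 11 passed in high-calorie against standard-diet livers. Over all genes 2925 passed under that setting, near the 3002 as reported (9.71%). Me1, the NADPH-making malic enzyme, stood at -0.60, 0.37, -1.50 and -0.43 in resveratrol livers, against 0.99, 0.61, 0.59, 0.43 and 0.70 in high-calorie livers. Its groups did not overlap, as in 6.21% of all genes tested with resveratrol below, and the difference did not pass (-1.20 ± 0.35, SE; adjusted p = 0.0612). Thrsp, a lipogenic gene also called Spot 14, differed by -0.88 (adjusted p = 0.139).

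Fasn, fatty acid synthase, averaged 0.37 in resveratrol livers, 0.73 in high-calorie livers and 0.98 in standard-diet livers, and the differences did not pass (-0.36, adjusted p = 0.319, for resveratrol minus high-calorie and -0.61, adjusted p = 0.289, for resveratrol minus standard diet). Pck1, the gluconeogenic enzyme PEPCK, differed by 0.11 between resveratrol and high-calorie livers (adjusted p = 0.897) and by 0.80 between high-calorie and standard-diet livers (adjusted p = 0.144). G6pc, glucose-6-phosphatase, differed by -0.18 and 0.27 in the same comparisons (adjusted p = 0.69 and 0.449). Fbp1, fructose-1,6-bisphosphatase, differed by 0.56 between high-calorie and standard-diet livers (adjusted p = 0.0694) and Pklr, liver pyruvate kinase, by -0.28 between resveratrol and standard-diet livers (adjusted p = 0.217). Prkag3, the γ3 subunit known from skeletal muscle, was dim (well above background on 12 arrays) and differed by 0.06 between resveratrol and high-calorie livers and by -0.12 between high-calorie and standard-diet livers, neither passing.

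Over all 14 arrays, each gene's likest partners were the 3 genes with the highest Pearson correlation of log2 ratios among 17104 genes with a matched symbol. The arrays share the pool, and the diets' differences enter the correlation. For Camkk2 they were Arel1 (r = 0.958), Bmp2k (r = 0.953) and Lpp (r = 0.953), and with each diet's mean removed the Arel1 value was 0.84. For Stk11 they were Ppp2r5d (r = 0.937), Tas1r3 and Cxxc5. For Prkaa1 they were Rc3h1 (r = 0.919), Fam32a and Cwc22, and for Prkaa2 Dtnbp1 (r = 0.839), Ugp2 and Zfp54. For Prkab1 they were Sephs2 (r = 0.83), Selenoo and Limch1, and for Prkab2 1700018F24Rik (r = 0.821), Bhlha15 and Hoxc9. For Prkag1 they were Hras (r = 0.926), Prdx5 and Psmd4, and for Prkag2 Gnpnat1 (r = 0.902), Mrpl3 and Eef1akmt2. The correlations are descriptions over 14 arrays.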

How the data were processed

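Per the labels, RNA of 14 livers was amplified linearly and hybridised in Cy3 against a Cy5 pool of 5 standard-diet livers. Spot and local background values in the deposited files are intensity units, per the file headers, from Agilent Feature Extraction 7.5.1. A further deposited table by the authors holds a score per probe. Its columns each have mean 0 and SD 1, with medians of -0.0497 to 0.0023, and its making and log base are not given in the labels or headers. The score follows the log of the animal's Cy3 signal (correlation 0.983 to 0.985), so a higher score means more RNA. The precision is limited by the number of arrays.

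Signals were corrected by normexp (offset 50), turned to log2 ratios of Cy3 over Cy5 and loess-normalised per array (weight 0 for 2256 control spots). Of 43790 spots per array, those with the scanner's outlier flag (576 in all, 0 of them on the 8 genes) were left out. Probes were matched to RefSeq symbols of GRCm38.p6 by systematic name, accession, gene name, older name or RIKEN clone name: 25192 of 41174 probes gave 18190 genes, and 15982 kept the files' names. The brightest probe stood for a gene, and a gene was tested if its Cy3 signal was well above background on 4 or more arrays (30919 of 34046). A 3-group model was fitted in limma 3.58.1 (R 4.3.3) with Benjamini-Hochberg adjustment over all genes, and only genes under an adjusted p of 0.05 are said to have passed, risen or fallen. The model was tested on simulated ratios with 200 genes changed.

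The members, the lists and the tests were chosen with earlier results of these data known. All 8 genes and their probes are named. From each list and comparison up to 3 passing genes are named by adjusted p, or up to 2 by p where none passed, with Acaca, Acacb, Fasn, Pck1, G6pc and Prkag3 whatever their result; some genes under this rule are not reported here. Acaca, Acacb, Crtc2, Tbc1d4, Map3k7, Ppm1e, Fnip2 and Brsk1 had no matched probe and were not analysed here, except for 2 acetyl-CoA carboxylase probes read by their description. The day is that on which the array image was extracted, not a day of RNA purification, and slide series are runs of slide numbers divided at their largest gap. Replicate numbers were not taken to pair animals. Deviations of 13 same-numbered pairs correlated at -0.19 to 0.30, with 4 over 0.1. Differently numbered pairs were not set beside them, so these values cannot settle whether the numbers pair animals. The alternatives are given in the closing section; for list genes other than with median centring they were chosen after seeing the data.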

Additional observations from a re-analysis of the deposited data

How the results depend on the processing

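Camkk2 was called higher in high-calorie than in standard-diet livers under 24 of the 27 alternatives that could move its call, and its difference without any 1 array ran from 0.41 to 0.50. The number of the 8 genes called in that comparison was 1 and became 0 with the Cy3 channel alone, the deposited scores or day 2 alone, and 2 with array weights (Stk11 added). Without any 1 array of the 2 groups compared it was 1 to 2, with Prkag2 added without standard-diet replicate 5 (0.20, adjusted p = 0.0362). For resveratrol against the standard diet it was 0, and 0 to 1 without any 1 array of those 2 groups (Camkk2, without resveratrol replicate 3). For resveratrol against the high-calorie diet it was 0 under each alternative run.

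Counts over all genes moved more. For resveratrol against the high-calorie diet 1749 genes were called, against 2649 without background correction, 977 with an offset of 10, 719 with processed signals, 117 with median centring, 45 with the Cy3 channel alone, 45 with the scores, 3003 with array weights, 470 with the day as a block, 678 with the slide series as a block, 4 within day 1, 0 within slide series 1 and 295 within slide series 2. For high-calorie against standard diet 3002 were called, against 418 with Cy3 alone, 396 with the scores, 6641 with array weights, 1818 with the slide series as a block, 1706 within day 1, 52 within day 2, 842 within slide series 2 and 854 with brightness as a covariate. For resveratrol against standard diet 72 were called, against 40 without background correction, 47 with processed signals, 17 with median centring, 9 with Cy3 alone, 4 with the scores, 147 with array weights, 25 with only the groups compared, 10 with the slide series as a block, 19 within day 1, 11 within slide series 2 and 31 with brightness. Without any 1 array of the 2 groups compared, the counts ran from 354 to 2043, from 1356 to 5776 and from 23 to 234 in these 3 comparisons. The lowest and highest came without resveratrol replicate 1 (354), high-calorie replicate 5 (1356), standard-diet replicate 5 (5776), standard-diet replicate 4 (23) and resveratrol replicate 3 (234). The causes were not tested.

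Higher calls were 1035 of 1749 for resveratrol against the high-calorie diet, but 31 of 117 with median centring, 14 of 45 with Cy3 alone and 15 of 45 with the scores. For high-calorie against standard diet they were 1683 of 3002, but 2339 of 2925, 336 of 418 and 315 of 396 under the same settings. For resveratrol against standard diet they were 43 of 72, but 14 of 17, 8 of 9 and 4 of 4.

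With the replicate block, 441 genes were called for resveratrol against the high-calorie diet, 2790 for high-calorie against standard diet and 48 for resveratrol against standard diet. Camkk2 kept its call (0.46, adjusted p = 0.003), while Stradb (-0.36, adjusted p = 0.0578) and Tsc2 (-0.18, adjusted p = 0.0922) lost theirs against the high-calorie diet, and Ppm1a against the standard diet (0.19, adjusted p = 0.0532). Sesn3 was not run under the alternatives, and no other named gene that had passed lost its call under the block. The numbers are not known to pair the animals, so this is not read as a paired test.

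With median centring the list counts became 0 of 8 upstream genes and 0 of 17 substrates for resveratrol against the high-calorie diet, each 1 as reported. Calls over all genes fell there as well, from 1749 to 117. For high-calorie against standard diet the count became 2 of 11 synthesis genes, 0 as reported. Over all genes 2925 were called there, near the 3002 as reported (9.71%). Hnf4a turned sign with median centring (0.0023), Cy3 alone (0.12) and the scores (0.0505). The within-array balances moved by less than their spread with all probes averaged, but not under every setting: over the settings run, Prkag2 minus Prkag1 ran from -0.05 to 0.51 for high-calorie against standard diet and from 0.06 to 0.80 for resveratrol against standard diet, and Prkab2 minus Prkab1 from -0.27 to 0.33 for resveratrol against standard diet. Signals of 20.6 to 575 units over the local background limit all 8 genes, since the offset compresses their folds.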
